A study of Homo sapiens with 12 samples.

Results

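The 42 genes described here encode proteins of the Fanconi anemia pathway, of homologous recombination and of the DNA damage checkpoint. They were picked by name as a pathway list, with earlier results of these data known, and all 42 are listed among the 28265 genes of the authors' expression comparison, each with an adjusted p-value. The cells were HepG2, an established line labelled as human hepatocellular carcinoma. They were either treated with toosendanin, a plant triterpenoid from Melia toosendan, or labelled as control. No dose and no length of treatment stand in the sources used here. RNA was measured in 12 libraries: 3 immunoprecipitated (IP) with an antibody against N6-methyladenosine (m6A) and 3 input libraries, which are RNA before the IP, in each condition. The stated aim of the series was to describe the toxicity of the compound to hepatoma cells.

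The Fanconi pathway repairs interstrand crosslinks, lesions that tie both DNA strands together and block a replication fork. A core complex with the ubiquitin ligase FANCL and its E2 enzyme UBE2T attaches ubiquitin to the FANCD2-FANCI clamp, which brings nucleases to the lesion. The break that results is resected to single-stranded DNA and repaired from the sister chromatid by homologous recombination, in which BRCA2 acts early and BLM or structure-specific nucleases take the joint molecules apart. ATM and ATR sense breaks and stalled forks and signal through the kinases CHEK2 and CHEK1. Many of these genes are known to be transcribed mostly in late G1 and S phase, in dividing cells of any tissue, the liver included.

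Values per library are not analysed here. For expression, each gene of the authors' deposited table has a mean of normalized counts, a fold change in log2 with a standard error (SE), and a DESeq2 p-value with its adjustment over 16552 genes. A gene was called where the adjusted p was under 0.05, and a negative log2 fold change means lower RNA after toosendanin. For m6A, each region has 4 counts, of IP and of input in each condition, which are sums over libraries. Over all regions the control sums were 42316089 (IP) and 34131862 (input), and the toosendanin sums were 29094328 (IP) and 24253006 (input). All 12 markers of hepatocytes and hepatoma cells were counted, among them ALB with a mean normalized count of 161730 and AFP with 158750 in the authors' deposited table. Of 11 markers of blood, endothelial and fibroblast cells, 4 had an adjusted p, PTPRC, CD3E, COL1A1, DCN and LUM were at 0, and CD68, a lysosomal protein gene, stood at 1425.6 and rose by 1.41. The labels do not say that libraries of 1 group are separate cultures; the p-values then measure only the spread between libraries, which may be technical.

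Of the 42 genes, 31 fell after toosendanin, 1 rose and 10 were not called. The share called lower was 73.8%, beside 15.7% of all genes tested (2605 of 16552). PALB2 was the only gene called higher, beside 15.7% of all genes called in that direction (2600 of 16552). At least 2-fold lower were 20 genes, or 47.6%, beside 3.46% of all genes tested (572). The median log2 fold change of the 42 genes was -0.97, against -0.000226 over all genes, of which the middle 50% lay between -0.32 and 0.34. The log2 fold changes of the genes that fell ran from -2.99 to -0.25: 6 genes fell at least 4-fold, 14 by between 1 and 2 log2 units, and 11 by less than 1. In bulk RNA, fewer cells that express a gene and less of its RNA per cell cannot be told apart.

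**Figure D1:**
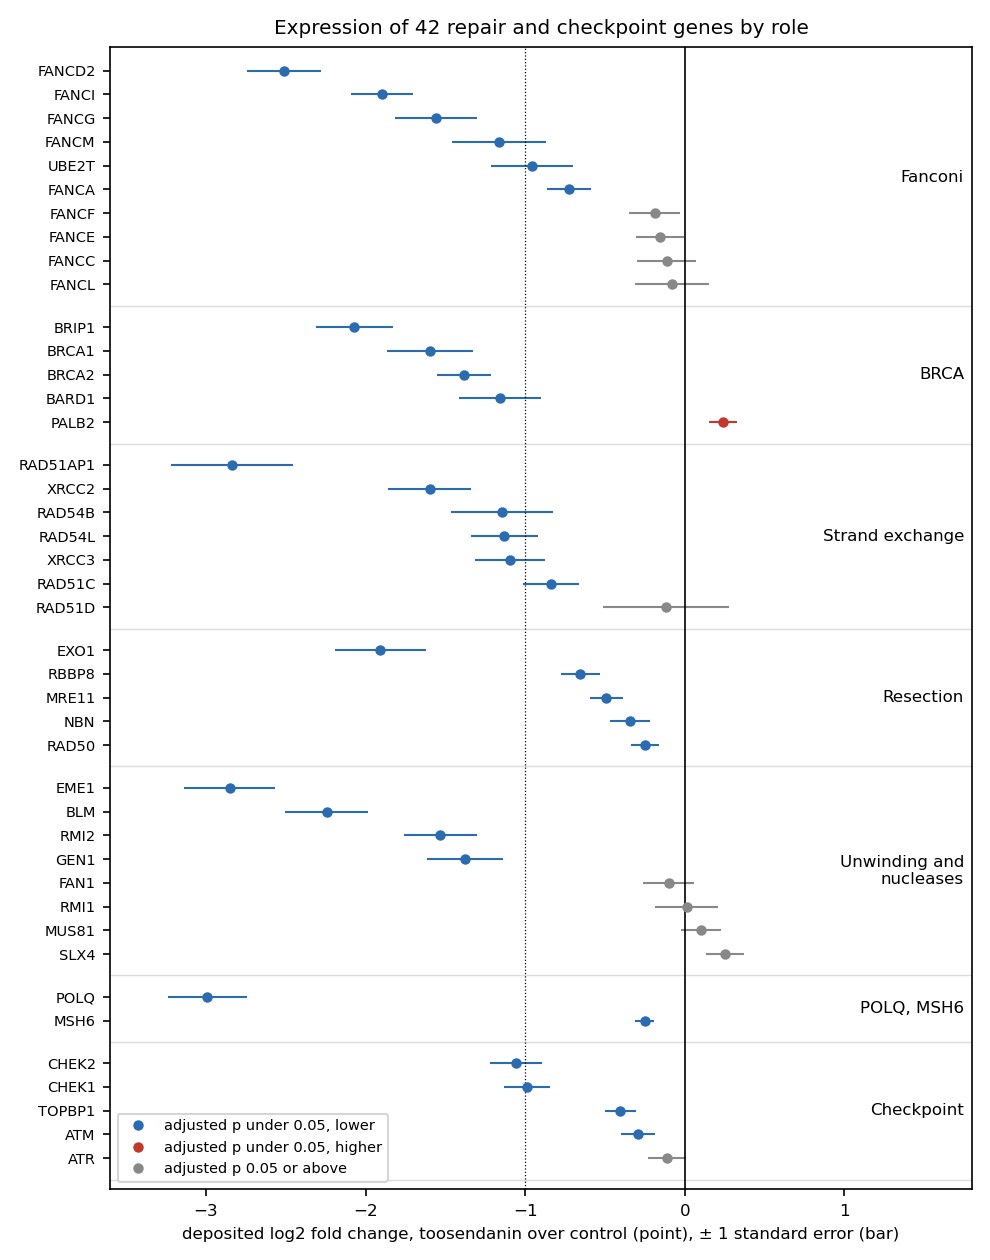
Deposited log2 fold change of each of the 42 genes (x axis, toosendanin over control; points) with 1 standard error on each side (bars), by role. Blue points are called lower, the red point (PALB2) higher and grey points are not called; the dotted line marks a 2-fold fall, which 20 genes passed.

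Of the Fanconi genes, the clamp, its E2 enzyme and 3 core members fell, while 4 core members were not called. Of 10 genes, 6 fell and 0 rose, with a median log2 fold change of -0.84. FANCD2, a ubiquitinated part of the clamp, fell by 2.51 ± 0.23 (log2 fold change ± SE, DESeq2 adjusted p = 1.5e-25) in the authors' deposited table, a 5.71-fold lower level. Its summed input counts were 369 in control and 66 after toosendanin, and its summed IP counts 823 and 126. FANCI, its partner in the clamp, fell by 1.89 ± 0.19 (DESeq2 adjusted p = 8.44e-21) in the authors' deposited table, with 841 summed input counts in control and 179 after toosendanin. Both genes of the clamp were thus lower in each kind of library. FANCG, a core adaptor, fell by 1.56 ± 0.25 in the authors' deposited table, and no m6A region carries its name. FANCM, the translocase that anchors the core complex to DNA, fell by 1.16 ± 0.29, and UBE2T by 0.96 ± 0.26, in the authors' deposited table. FANCA, which pairs with FANCG in the core complex, fell by 0.73 ± 0.14 there.

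The other 4 core members were not called, at log2 fold changes in the authors' deposited table of FANCC -0.11 ± 0.18, FANCE -0.15 ± 0.15, FANCF -0.19 ± 0.16 and FANCL, the ligase itself, -0.08 ± 0.23. Their DESeq2 adjusted p-values ran from 0.407 for FANCF to 0.853 for FANCL in the authors' deposited table. From summed counts, centred on the median gene, all 4 were lower: input gave -0.51 for FANCC, -0.19 for FANCE, -0.31 for FANCF and -0.34 for FANCL, and IP gave -0.68, -0.36, -0.64 and -0.41, values with no test. To compare proteins that act as a pair, the difference of both log2 fold changes was given with a 95% interval in which both SEs count as independent. The pairs were picked after their values were seen, so the intervals are a description. FANCG lay below FANCF by a difference of -1.37 (-1.96 to -0.78), and UBE2T below FANCL by -0.88 (-1.55 to -0.20). FANCD2 minus FANCI was -0.62 (-1.21 to -0.03).

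In the BRCA group 4 of 5 genes fell and 1 rose, with a median of -1.38. BRIP1, the helicase that binds BRCA1, fell by 2.07 ± 0.24 (DESeq2 adjusted p = 2.85e-16) in the authors' deposited table. The sums of its input counts were 210 in control and 39 after toosendanin. BRCA2 fell by 1.38 ± 0.17 (DESeq2 adjusted p = 6.56e-15) in the authors' deposited table, with summed input counts of 305 and 88. BRCA1 fell by 1.60 ± 0.27 and BARD1, with which it forms a ubiquitin ligase, by 1.16 ± 0.26 in the authors' deposited table. The difference of BRCA1 and BARD1 was -0.44 (-1.17 to 0.29), an interval that holds 0. PALB2, the protein that joins BRCA1 to BRCA2, rose by 0.24 ± 0.09 (DESeq2 adjusted p = 0.0190) in the authors' deposited table. The sums of its input counts were 1102 in control and 928 after toosendanin, a rise of 0.24 on the log2 scale once the ratio was centred on the median gene. BRCA2 minus PALB2 was -1.62 (-1.99 to -1.25), and both calls have opposite signs. PALB2 lost its call at an adjusted p under 0.01, and its centred ratio from summed IP counts was 0.04.

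Of 7 genes of strand exchange, the step in which a resected end invades the sister, 6 fell and 0 rose, with a median of -1.13. RAD51AP1, which aids the invasion, fell by 2.84 ± 0.38 (DESeq2 adjusted p = 2.72e-12) in the authors' deposited table. The sums of its input counts were 343 in control and 34 after toosendanin. XRCC2, which acts in the same step, fell by 1.60 ± 0.26 (DESeq2 adjusted p = 1.04e-08) in the authors' deposited table, with summed input counts of 260 and 53. XRCC3 fell by 1.09 ± 0.22 and its partner RAD51C by 0.84 ± 0.17 in the authors' deposited table. RAD51D, which sits beside XRCC2 in a complex, had a log2 fold change of -0.12 ± 0.40 there (DESeq2 adjusted p = 0.879). Its interval runs from -0.89 to 0.66, the widest among the 10 genes not called, so a fall as large as that of RAD51C lies within it. XRCC2 minus RAD51D was -1.48 (-2.41 to -0.56), and RAD51C minus RAD51D was -0.72 (-1.57 to 0.12). The DNA translocases RAD54L and RAD54B fell by 1.13 ± 0.21 and by 1.14 ± 0.32 in the authors' deposited table, and the interval of their difference, 0.01 (-0.74 to 0.76), is wide.

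All 5 resection genes fell, but 4 of them by little, and the median was -0.49. EXO1, the exonuclease of long-range resection, fell by 1.91 ± 0.28 (DESeq2 adjusted p = 2.91e-10) in the authors' deposited table. The sums of its input counts were 63 in control and 13 after toosendanin. RBBP8, also called CtIP, which starts resection with the MRE11 complex, fell by 0.65 ± 0.12 (DESeq2 adjusted p = 5.86e-07) in the authors' deposited table. The nuclease complex itself moved less. There MRE11 fell by 0.49 ± 0.10, NBN by 0.34 ± 0.12 and RAD50 by 0.25 ± 0.09 in the authors' deposited table. The intervals of the differences within the complex held 0: RAD50 minus MRE11 was 0.24 (-0.02 to 0.51) and NBN minus MRE11 was 0.15 (-0.17 to 0.47). EXO1 minus RBBP8 was -1.25 (-1.86 to -0.65). At an adjusted p under 0.01 in place of 0.05, NBN and RAD50 lost their calls and 3 resection genes remained.

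The group that takes joint molecules apart held the widest contrasts between partners. Of 8 genes 4 fell, all at least 2-fold, and 4 were not called; the median was -0.74. EME1, the regulatory subunit of the MUS81 nuclease, fell by 2.85 ± 0.28 (DESeq2 adjusted p = 3.59e-22) in the authors' deposited table, a 7.22-fold lower level. Its summed input counts were 479 in control and 55 after toosendanin. MUS81, the catalytic subunit, had a log2 fold change of 0.10 ± 0.13 (DESeq2 adjusted p = 0.615) in the authors' deposited table, with summed input counts of 517 and 345. The subunits differed by -2.95 (-3.56 to -2.35). EME1, with a mean normalized count of 198, overlaps LRRC59, with 13944, and the part of LRRC59 reads in this difference was not tested. BLM, the helicase that dissolves double Holliday junctions, fell by 2.24 ± 0.26 (DESeq2 adjusted p = 1.71e-16) in the authors' deposited table, with 97 summed input counts in control and 16 after toosendanin.

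RMI2, a small subunit of the BLM complex, fell by 1.53 ± 0.23 in the authors' deposited table, and its summed input counts were 514 and 116. RMI1, its partner in that complex, had a log2 fold change of 0.01 ± 0.20 in the authors' deposited table, and its summed input counts were 723 and 539. RMI2 minus RMI1 was -1.54 (-2.13 to -0.95), and BLM minus RMI1 was -2.26 (-2.89 to -1.62). RMI1, with a mean normalized count of 188, overlaps HNRNPK, with 19803, and the part of HNRNPK reads in these differences was not tested. The resolvase GEN1 fell by 1.38 ± 0.24 in the authors' deposited table. The nuclease scaffold SLX4 was not called at 0.25 ± 0.12 (DESeq2 adjusted p = 0.0921), nor was the crosslink nuclease FAN1 at -0.10 ± 0.16, in the authors' deposited table.

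POLQ, the polymerase of microhomology-mediated end joining, had the largest fall of the 42 and fell by 2.99 ± 0.24 (DESeq2 adjusted p = 2.01e-32) in the authors' deposited table, a 7.95-fold lower level. Its 8 regions held 237 summed input counts in control and 26 after toosendanin, and 464 and 61 summed IP counts. MSH6, a mismatch-recognition subunit, had the highest mean normalized count of the 42 at 5539.3. It fell by 0.25 ± 0.06 (DESeq2 adjusted p = 0.000123) in the authors' deposited table, with summed input counts of 7269 and 4418. The largest and 1 of the smallest falls among the 42 thus stood in this pair.

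In the checkpoint group the effector kinases fell further than the sensors. Of 5 genes 4 fell, with a median of -0.40. CHEK1, the kinase downstream of ATR, fell by 0.99 ± 0.14 (DESeq2 adjusted p = 1.29e-10) in the authors' deposited table, and its summed input counts were 670 in control and 225 after toosendanin. CHEK2, the kinase downstream of ATM, fell by 1.06 ± 0.16 (DESeq2 adjusted p = 1.65e-09) in the authors' deposited table, with summed input counts of 233 and 78. TOPBP1, the activator of ATR, fell by 0.40 ± 0.10 and ATM by 0.29 ± 0.11 in the authors' deposited table. ATR had a log2 fold change of -0.11 ± 0.12 there, and was not called (DESeq2 adjusted p = 0.544). CHEK1 minus ATR was -0.88 (-1.24 to -0.51), and CHEK2 minus ATM was -0.76 (-1.14 to -0.38). ATM lost its call at an adjusted p under 0.01.

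Among the 42 genes, the size of the change went with the depth of counting. Mean normalized counts ran from 79.0 for RAD54B to 5539.3 for MSH6, with a median of 307; they are not corrected for gene length and are read here as depth. The 8 genes with a mean of at least 1000 were MSH6, RAD50, ATM, TOPBP1, MRE11, NBN, PALB2 and RBBP8, and their largest fall was that of RBBP8 at 0.65. All 20 genes at least 2-fold lower were among the 34 below 1000. The shares at least 2-fold lower over all genes below and above 1000 were not taken, so this count has no background beside it. Over the 42 genes Spearman's rho of mean count and log2 fold change was 0.57, given as a description, since both values come from the same libraries and the mean itself includes the lowered group.

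The counts summed over the regions of each gene gave a second view of the same RNA. For 41 of the 42 genes, the log2 ratio of toosendanin over control was taken from these sums and centred on the median of 7949 well-counted genes, which was -0.49 for input and -0.49 for IP. Pearson's r across genes with the deposited log2 fold change was 0.97 for input and 0.95 for IP. The genes are not independent replicates, and the sums may come from the libraries of the deposited comparison. All 31 called genes with regions kept their sign in input and in IP, and for 31 of 41 genes the input ratio lay within 1 SE of the deposited value. The widest gaps were those of BARD1, whose input ratio lay 0.69 above the deposited -1.16, and of FANCD2, whose input ratio lay 0.51 above the deposited -2.51. The widest gap below was that of FANCC, whose input ratio lay at -0.51 against the deposited -0.11. RAD51D, not called, stood at 0.37 from input sums and -0.20 from IP sums. BARD1 rests on few reads, 56 summed input counts in control and 29 after toosendanin.

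**Figure D2:**
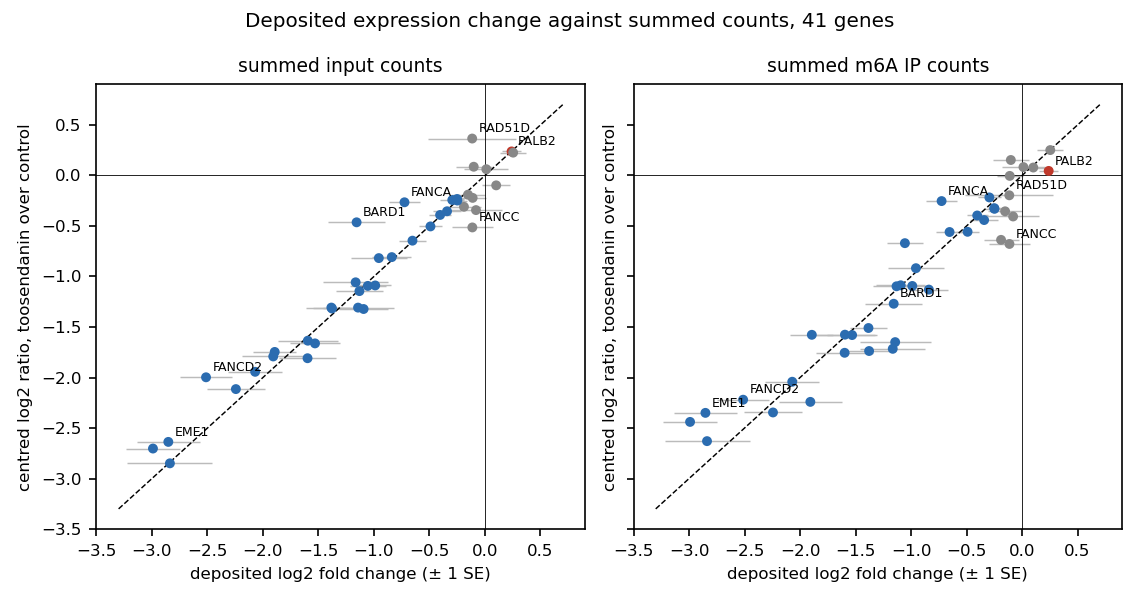
Centred log2 ratio of toosendanin over control from summed input counts (left) and summed IP counts (right) on the y axes, against the deposited log2 fold change on the x axes with 1 standard error (grey bars), for 41 genes. Blue is called lower, red higher and grey not called in the deposited comparison; the dashed line marks equal values, and all 31 called genes keep their sign in both panels.

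Some of the genes overlap a neighbour, and a count without strand would mix their transcripts. The library kit keeps strand, per the labels' protocols, but no source used here gives the counting setting. By RefSeq positions on GRCh38.p14, 20 of the 42 genes overlap a counted gene, and 12 overlap one with a higher mean count. EME1 overlaps LRRC59, which had a mean normalized count of 13944 and a log2 fold change of 0.09 ± 0.09 in the authors' deposited table. RMI1 overlaps HNRNPK, with a mean of 19803 and -0.22 ± 0.05 in the authors' deposited table. GEN1 overlaps SMC6, with a mean of 4113 and -0.44 ± 0.10, and XRCC3 overlaps KLC1, with a mean of 4119 and 0.19 ± 0.07, in the authors' deposited table. Without these 12 genes, 23 of the remaining 30 were called lower. The share over all genes under the same restriction was not taken, so this count has no background beside it. RefSeq also names pseudogene copies of 6 of the genes (FANCD2, BRCA1, RAD51AP1, MRE11, RBBP8 and CHEK2), whose reads may be split; the part of copies and neighbours in the values was not tested.

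Promoters of 38 of the genes were matched in RefSeq (GRCh38.p14), as 54 windows of 300 bases that run from 250 before to 50 after a transcript start. They were searched on both strands for 3 motif kinds known from genes of the cell cycle: E2F (TTTCCCGC, TTTCGCGC, TTTGCCGC or TTTGGCGC), CHR (TTTGAA or TTCGAA) and CCAAT. An E2F form stood in 9 of 38 genes (23.7%), beside 3.99% of 27305 symbols in the table and 6.21% of the 12136 that have an expression adjusted p. With only the first listed window of each gene the shares were 21.1% and 3.33%. CHR stood in 6 of 38 (15.8%), beside 19.5% of all symbols and 16.0% of those with an expression adjusted p. CCAAT stood in 19 of 38 (50%), beside 39.7% and 42.4%. E2F forms stood in 4 of 17 genes at least 2-fold lower, in 3 of 10 that fell by less, and in 2 of 11 not called or higher, and these shares were not tested against each other. A match describes these letters and is no measure of binding by a factor.

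The windows below, 30 bases each from RefSeq, are printed to show the exact matches at or near the start of 4 genes with log2 fold changes of -2.51, -1.91, -1.60 and -1.38 and of 2 genes that were not called. Capitals mark the E2F form or its reverse complement. In FANCD2 (chr3:10026424-10026453, plus strand) the match spans the start, 2 bases before it. In EXO1 (chr1:241848197-241848226, plus) it begins 4 bases after the start, in XRCC2 (chr7:152676102-152676131, minus) 21 after, and in GEN1 (chr2:17753859-17753888, plus) 1 after. In FANCC (chr9:95317737-95317766, minus) it begins 46 bases before the start and in RMI1 (chr9:83980762-83980791, plus) 32 before.
FANCD2: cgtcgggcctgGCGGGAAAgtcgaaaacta
EXO1: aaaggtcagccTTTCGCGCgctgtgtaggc
XRCC2: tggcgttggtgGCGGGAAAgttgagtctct
GEN1: cagttgcggggTTTCGCGCcgccggagtct
FANCC: ttcgtcggaatTTTCCCGCgacgccgcggg
RMI1: ggcgcgagcgcGCGGCAAAtcgggcgggaa

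FANCD2 and XRCC2 carry the same 8 letters, GCGGGAAA, and EXO1 and GEN1 both carry TTTCGCGC. FANCC holds the reverse complement of the FANCD2 form and was not called, at -0.11 ± 0.18 against -2.51 ± 0.23 in the authors' deposited table. The other genes with a match were FANCA, TOPBP1 and MSH6, with log2 fold changes of -0.73, -0.40 and -0.25. In TOPBP1 the match spans the start, 7 bases before it, and in MSH6 it begins 3 bases after the start. Matches at the start thus stood in genes with small falls too. MSH6 carries the same letters as the printed FANCC match, TTTCCCGC. In FANCA the match begins 172 bases before the start, as does a further match of FANCC, GCGCGAAA.

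Other genes of the repair pathways, 127 in 5 lists of which 2 hold MAD2L2, were read in the same way. Of them 59 fell (46.5%) and 6 rose, 13 fell at least 2-fold, and the median was -0.28. Of 40 further Fanconi and recombination genes 20 fell and 1 rose, with a median of -0.38. Among them UHRF1, which senses crosslinks, fell by 1.61 ± 0.11, the nuclease DNA2 by 1.48 ± 0.25 and RPA1, which coats single strands, by 0.67 ± 0.10 in the authors' deposited table. SWI5 rose there by 0.31 ± 0.13 (DESeq2 adjusted p = 0.0486). Of 27 further checkpoint genes 13 fell and 0 rose, with a median of -0.28. CDC25C, the phosphatase of mitotic entry, fell by 4.13 ± 0.32, CLSPN, which presents CHEK1 to ATR, by 1.42 ± 0.13, and the histone gene H2AX by 1.05 ± 0.13 in the authors' deposited table.

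Of 20 end joining genes 7 fell, 0 of them at least 2-fold, and 1 rose, with a median of -0.20. PARP1 fell by 0.44 ± 0.06, APLF by 0.75 ± 0.16 and XRCC5, the larger Ku subunit, by 0.26 ± 0.05, and NHEJ1 rose by 0.35 ± 0.12, in the authors' deposited table. Of 9 mismatch repair genes other than MSH6, 7 fell and 0 rose, with a median of -0.41. The ligase gene LIG1 fell by 0.76 ± 0.08 and POLD1, a replicative polymerase subunit, by 0.87 ± 0.14 in the authors' deposited table. Of 32 excision repair genes 12 fell and 4 rose, with a median of -0.18. There DDB2 fell by 1.25 ± 0.13, UNG fell by 0.84 ± 0.12 and NEIL3 fell by 4.09 ± 0.61, while GTF2H1 rose by 0.30 ± 0.09, OGG1 by 0.35 ± 0.13 and SMUG1 by 0.81 ± 0.31, in the authors' deposited table.

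Genes of DNA replication and of mitosis were set beside these lists. Of 34 replication genes 32 fell, 20 of them at least 2-fold, with a median of -1.08, close to the -0.97 of the 42 genes. Among them RRM2 fell by 3.04, MCM7 by 1.45 and MCM3 by 1.11 in the authors' deposited table. All 30 mitosis genes fell at least 2-fold, with a median of -3.35, and TOP2A fell by 3.76, CENPF fell by 3.64 and PRC1 fell by 2.86 in the authors' deposited table. The log2 fold change of POLQ, -2.99, lay within the ranges of both lists. These ran from -3.04 to -0.11 for replication and from -5.25 to -1.81 for mitosis. Differences between the lists were not tested, nor was the part that a change in the number of replicating or dividing cells could have in the falls of the 42 genes.

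**Figure D3:**
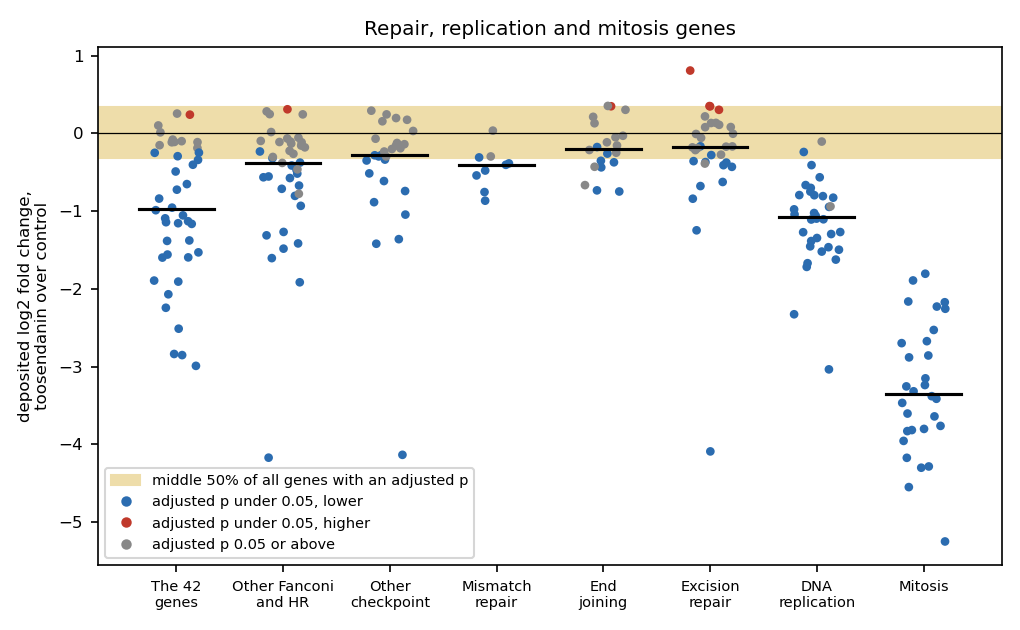
Deposited log2 fold change (y axis, toosendanin over control) of each gene of 8 lists, with the list's median as a black line. Blue is called lower, red higher and grey not called, and the band holds the middle 50% of all genes with an adjusted p; the medians are -0.97 for the 42 genes, between -0.41 and -0.18 for the other repair lists, -1.08 for replication and -3.35 for mitosis.

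m6A was read from 172 regions under the names of 41 of the genes, of 46178 regions in all. FANCG had none, BRCA1 had 10 and the median was 3 per gene. A further 5 regions carry a second gene name beside a member and were left out of the counts below. In control cells the regions of these genes had a higher median ratio of IP over input than all regions together, a description with no test. The IP over input ratio, scaled to the totals, was above 1 in 122 of 172 regions (70.9%), beside 48.3% of all regions, and at least 2 in 35 (20.3%), beside 10.4%. The median log2 ratio was 0.38 in control and 0.32 after toosendanin, against -0.04 and -0.02 over all regions. The highest among regions with a false discovery rate (FDR) was a region of FANCM, with 122 IP and 27 input counts in control, at 1.87 ± 0.31 (± Poisson SE). The lowest was a region of MUS81, with 114 IP and 204 input counts, at -1.15 ± 0.17.

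Summed over all regions of a gene, the control log2 ratio of IP over input was above 0 in 31 of 41 genes, and it was above 0 in 31 after toosendanin. It was at least 1 in 5 genes: BARD1 at 1.42 ± 0.22, EXO1 at 1.20 ± 0.21, FANCE at 1.18 ± 0.08, XRCC2 at 1.07 ± 0.11 and FANCM at 1.03 ± 0.17. FANCE, with 1383 IP and 492 input counts in its 1 region, is the best counted of these, and its value after toosendanin was 1.06 ± 0.10. MUS81 was lowest at -0.83 ± 0.10, followed by CHEK2 at -0.66 ± 0.14. Genes that fell and genes that were not called thus stood at both ends of this order. The same counts over all genes were not taken, so 31 of 41 and 5 of 41 have no background beside them.

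Among the 172 regions named for 1 of these genes alone, 0 were called for a change of m6A. Of these regions 57, in 29 genes, carry an FDR in the authors' deposited table, and 0 of them had an FDR under 0.05, beside 8.95% of all regions with one (2209 of 24688). At an unadjusted p under 0.05 there were 6 of the 57 and 18 of the 172 (10.5%), beside 15.6% of all regions with a p (7184 of 46175). Of these 18 regions 11 had a lower ratio after toosendanin and 7 a higher one. The deposited p-values hold counting error only: the SE that they imply matched the Poisson error of the 4 sums to within 1% in 164 of 171 regions of these genes. The median log2 change of the 57 regions was -0.05, the same as over all regions with an FDR, and 34 were lower and 23 higher.

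The nearest to a call was a region of BRIP1, with 109 IP and 32 input counts in control against 8 IP and 10 input counts after toosendanin. Its log2 change of IP over input was -2.10 (FDR 0.0522) in the authors' deposited table. The value after treatment rests on 18 counts. Another region of BRIP1 had 139 IP and 107 input counts in control against 32 and 11, a log2 change of 1.15 in the other direction with no FDR, in the authors' deposited table. MSH6, the best counted of the genes, had a region with 2710 IP and 1572 input counts in control and 1624 and 1069 after toosendanin, a change of -0.20 (FDR 0.0688) in the authors' deposited table. Its main region, with 12817 and 5224 counts in control and 7145 and 3042 after toosendanin, changed by -0.09 (FDR 0.168) there. RAD50, with 11483 and 4832 counts against 6512 and 2905 in 1 region, changed by -0.09 (FDR 0.169) in the authors' deposited table.

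Depth set what could be seen. The 95% counting interval of the 57 regions reached a median of 0.41 log2 units to either side, from 0.08 to 1.46, and this was under 0.5 in 38 and under 1 in 54. A change of 2-fold would thus lie outside this unadjusted interval around 0 in 54 of these regions. A call by FDR asks for more than that, so a 2-fold change need not be called in all 54. Over all regions with an FDR the statistic had a robust spread of 1.53, wider than counting error alone would give. The 115 regions without an FDR held at most 710 counts over the 4 sums. The fewest in a region with an FDR was 159, so these ranges overlap. For FANCD2 the 1 region with an FDR had 368 IP and 155 input counts in control against 56 and 26, a change of -0.14 (FDR 0.871) in the authors' deposited table. The shared region of RBBP8 and the microRNA gene MIR4741, which is not among the 172, changed by 1.02 (FDR 0.0293) in the authors' deposited table and so was called higher. It held 97 IP and 137 input counts in control and 72 and 47 after toosendanin. In the authors' deposited table the mean normalized count of MIR4741 was 1.01 and that of RBBP8 was 1136.2.

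**Figure D4:**
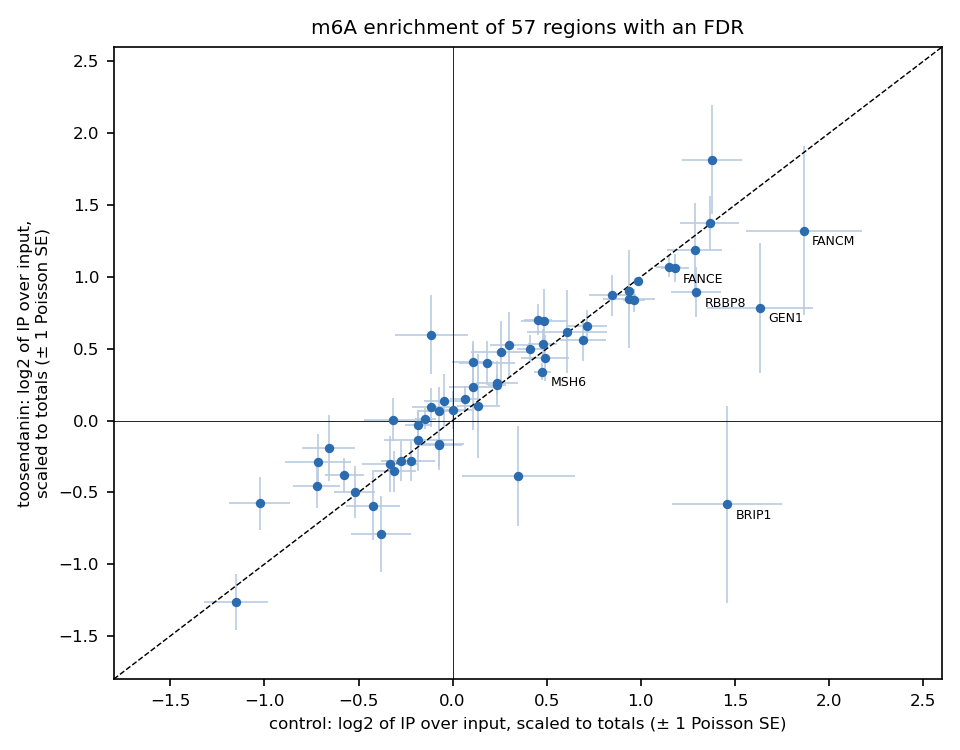
Log2 ratio of summed IP over summed input, scaled to the totals, in control (x axis) and after toosendanin (y axis) for the 57 regions with an FDR, with 1 Poisson standard error on each side. The dashed line marks equal enrichment; Pearson's r over the 57 regions is 0.83, and the BRIP1 region lies farthest below the line at 1.46 in control and -0.58 after toosendanin.

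Averaged over the regions of a gene with weights by counting error, the log2 change of m6A was called in 0 of 41 genes, beside 12.1% of all genes (1494 of 12383), by a two-sided normal test with Benjamini-Hochberg adjustment over all genes. At an unadjusted p under 0.05 there were 6 of 41 lower (MSH6, PALB2, BARD1, RAD50, RAD51D and FANCE) and 0 higher, beside 17.9% of all genes lower (2217) and 6.24% higher (773). MSH6 changed by -0.09 (-0.16 to -0.03; adjusted p = 0.0502 by this normal test over all genes) and PALB2 by -0.20 (-0.36 to -0.04; adjusted p = 0.0814 by the same test). The median over the 41 genes was -0.06, and it was -0.06 over all genes too. In 25 of 41 genes the distance from the mean to either end of the 95% interval was under 0.5. FANCD2, whose RNA fell 5.71-fold, had a mean m6A change of -0.21 (-0.68 to 0.26), and BRCA1 had 0.04 (-0.32 to 0.39). Across the 41 genes Pearson's r of expression change and m6A change was -0.04 and Spearman's rho 0.01, given as a description, since both measures rest on the same input RNA. Expression thus fell by up to 7.95-fold in these genes, while 0 changes of m6A passed the adjusted test at this depth in regions named for 1 gene, singly or averaged per gene.

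**Figure D5:**
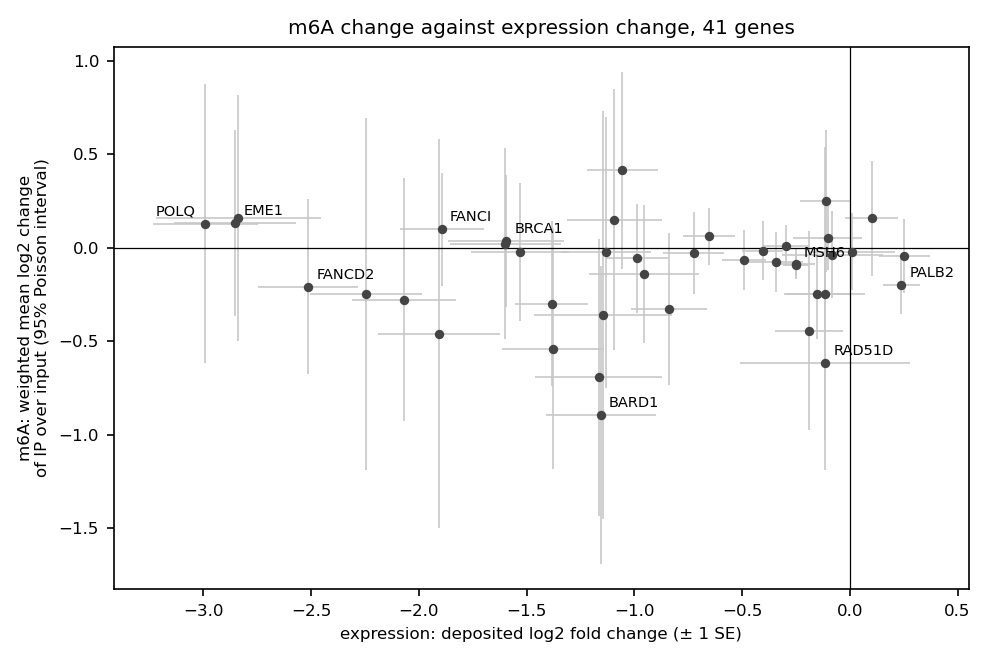
Weighted mean log2 change of IP over input (y axis, with its 95% counting interval) against the deposited log2 fold change of expression (x axis, with 1 standard error) for 41 genes. The m6A values lie around 0 along the whole range of expression changes, and BARD1 is lowest at -0.90 with an interval from -1.69 to -0.10.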

How the data were processed

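The 42 genes, the other gene lists and the tests were chosen with earlier results of these data known. The authors deposited 2 tables and no further per-library columns were used. The first holds, per the file headers, a DESeq2 comparison: mean normalized counts (a signal averaged over libraries by the authors), log2 fold changes with SE, a Wald score deposited by the authors, and p-values with adjusted p. The second holds, per the file headers, read counts per region that the authors summed over the libraries of a condition, and log2 changes of IP over input with p-values and FDR deposited by the authors. The submitters' processing notes name HISAT2, StringTie and DESeq, with no version. Build, annotation, strand setting, m6A caller and the libraries in the fit: not given in the sources used here. The library kit tags molecules with unique identifiers, per the labels' protocols.

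The deposited tests over all genes or regions were read as they stand (call: adjusted p or FDR under 0.05). A fit of edgeR on counts per library, foreseen in the design, was not run, since the values are summed or averaged. Computed here with Python 3.11.15, pandas 2.3.3, numpy 2.4.6 and scipy 1.17.1: IP over input with Poisson error, centred ratios of summed counts, inverse-variance means of m6A changes per gene over regions that carry 1 gene name, 95% intervals, and motif matches. The adjustment and averaging code was tested on simulated data. Depth per library is unknown, and intervals on counts cover counting error only. Genes were named by rule: SE for every member, adjusted p for the 2 of each role group with the smallest and for those called higher, and up to 3 genes per direction from each other list by smallest adjusted p; the adjusted p of members not called, the paired differences and the overlapping genes were added after their values were seen. A gene that this rule names is not reported here.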

Additional observations from a re-analysis of the deposited data

How the results depend on the processing

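Of the 31 genes called lower, 28 were called at an adjusted p under 0.01, and with Benjamini-Hochberg adjustment over all p-values all 42 genes kept their side of the threshold. Requiring a change of at least 2-fold left 20 lower and 0 higher, and an adjusted p under 0.01 left 0 higher, since PALB2 lost its call. A restriction to the 50% of genes with the higher means, adjusted again, left 15 of the 42 to test, and 9 were lower. The share called lower over all genes of that restricted set was not taken, so these 9 have no background beside them. Without genes that overlap one of higher mean count, 23 of 30 were lower, again with no share over all genes taken. Of 28 counts for role groups and other lists, 1 moved by over 1.5 times with adjustment over all p-values (SWI5 lost its call), 5 moved by over 1.5 times at an adjusted p under 0.01, 13 under the 2-fold limit and 8 among the higher means, and each of these became smaller. Without overlapping genes, which was run for the role groups alone, 2 counts became smaller by over 1.5 times and 12 did not. Both of these counts came from fewer genes tested. Strand exchange went from 6 of 7 lower to 3 of 4, and the group that takes joint molecules apart from 4 of 8 to 2 of 4. The restriction to higher means also left fewer genes to test, with 0 in strand exchange. No called gene reversed its sign in summed input or IP counts, and 10 of 41 genes moved by over 1 SE in input and 18 in IP. For m6A the count of 0 called regions became 1 among regions enriched in control, where the BRIP1 region reached an adjusted p of 0.0447 (34 regions of these genes). That choice of regions uses the control ratio, which is part of the change tested and was high for this region in control only, so it adds no valid call. The count stayed 0 under the other alternatives. The adjusted p of that region ran from 0.0447 to 0.707, the latter with the statistic divided by its robust spread of 1.53. The overlap, IP-count and all-region adjustment alternatives were chosen after seeing the data. No paired analysis was possible because the files hold no values per library, and leaving out replicates could not be run for the same reason. Of the 172 regions 115 have no FDR, by a rule not given in the sources.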
